A study of Mus musculus with 5 samples.

Results

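Cytochrome P450 genes outside the core of steroid hormone synthesis were followed on 5 single-colour mouse microarrays. The members were the probes whose annotated gene symbol has the form of a P450 gene (Cyp, a family number, a subfamily letter and a gene number), leaving out Cyp11a1, Cyp11b1, Cyp17a1 and Cyp51. There were 72 such probes for 67 genes, among 26423 probes and 19084 named genes in all. The first group, MEF, is 1 array of mouse embryonic fibroblasts, grown from embryos of 13.5 days post coitus and exposed to a mock vector. The second, iLC, holds 2 arrays labelled as such fibroblasts transduced with lentivirus carrying Dmrt1, Gata4 and Nr5a1, all transcription factors of the gonad, and called induced Leydig-like cells in the labels. The last group holds 2 arrays of Leydig cells proper, which make androgens in the testis, isolated from mice aged 56 days. The sources used here do not give the strain, the sex of the embryos or the vector's promoter. A reprogramming medium holding 50 ng/ml of IGF and 10 ng/ml of PDGFAA is described after a viral exposure of 12 hours, in text that stands beside every sample, so whether the MEF culture received that medium is not known. The labels do not say whether the arrays of a pair are from different cultures or mice, so p-values measure only the spread between these arrays.

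P450 enzymes are haem-containing monooxygenases that place an oxygen atom from O2 on sterols, fatty acids, vitamins and foreign chemicals. Those of the endoplasmic reticulum take electrons from the reductase Por, and those of mitochondria from the ferredoxin Fdx1. In Leydig cells the best-known members are the enzymes of androgen synthesis left out here. The remaining families clear retinoic acid, activate and inactivate vitamin D, oxidise cholesterol toward bile acids and oxysterols, make or degrade arachidonic acid products, and detoxify drugs.

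Of the members, 5 passed the test in at least 1 comparison, and the 250 bases upstream of their transcription starts are shown because 4 of them were higher in Leydig cells together. The sequences are from RefSeq on build GRCm38.p6, read 5′ to 3′ on the strand of the gene. Capitals mark every match, on either strand, to AGGTCA (the half-site of many nuclear receptors, Nr5a1 included), GATAA (a core GATA factor site), ACANTGT (a core of the Dmrt1 site) or GCGTG (the core of the aryl hydrocarbon receptor site); these motifs do not overlap in their letters. The Cyp27a1 sequence lies at chr1:74713285-74713534 on the plus strand. The minus-strand sequences lie at chr17:32917357-32917606 for Cyp4f14, chr4:96591486-96591735 for Cyp2j9, chr17:32947362-32947611 for Cyp4f13 and chr7:25816526-25816775 for Cyp2s1.
Cyp27a1: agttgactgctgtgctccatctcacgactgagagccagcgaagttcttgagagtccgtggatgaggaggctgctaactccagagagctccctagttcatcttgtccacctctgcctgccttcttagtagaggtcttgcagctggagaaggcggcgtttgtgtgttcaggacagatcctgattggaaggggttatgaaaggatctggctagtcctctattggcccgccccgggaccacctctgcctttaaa
Cyp4f14: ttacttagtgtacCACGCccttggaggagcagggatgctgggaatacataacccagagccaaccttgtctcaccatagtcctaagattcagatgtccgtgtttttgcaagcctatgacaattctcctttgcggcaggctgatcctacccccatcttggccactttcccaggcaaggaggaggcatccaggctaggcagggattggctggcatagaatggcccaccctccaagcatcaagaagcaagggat
Cyp2j9: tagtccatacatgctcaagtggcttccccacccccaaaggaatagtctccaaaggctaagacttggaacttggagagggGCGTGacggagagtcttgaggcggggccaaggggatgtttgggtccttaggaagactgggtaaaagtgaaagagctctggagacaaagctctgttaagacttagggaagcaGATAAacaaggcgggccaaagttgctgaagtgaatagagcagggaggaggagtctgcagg
Cyp4f13: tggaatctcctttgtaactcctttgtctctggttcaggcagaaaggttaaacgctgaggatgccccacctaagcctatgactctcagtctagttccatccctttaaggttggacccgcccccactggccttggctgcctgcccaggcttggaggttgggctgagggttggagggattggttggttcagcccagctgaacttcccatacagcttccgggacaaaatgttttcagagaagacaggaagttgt
Cyp2s1: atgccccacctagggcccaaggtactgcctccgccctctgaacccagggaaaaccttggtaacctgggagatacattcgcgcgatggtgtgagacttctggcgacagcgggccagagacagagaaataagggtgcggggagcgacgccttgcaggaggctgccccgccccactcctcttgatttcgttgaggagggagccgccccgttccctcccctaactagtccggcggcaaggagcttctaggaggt

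Cyp2j9 had 1 match to GATAA, beginning 60 bases upstream of the start, and 1 to GCGTG, 171 bases upstream. Cyp4f14 had 1 match to GCGTG on the other strand, 237 bases upstream of the most upstream of its 4 listed starts. The windows of 2 of the other starts each held a GATAA match, 17 and 30 bases upstream. Cyp27a1, Cyp4f13 and Cyp2s1 held none of the 4 motifs in these windows. Of 32851 RefSeq promoters, 14.0% held AGGTCA, 22.6% GATAA, 6.47% ACANTGT and 28.2% GCGTG in the same window. The table listed 56 promoters for 51 of the 67 P450 genes, of which 12, 24, 6 and 13 held these motifs in the same order (21.4%, 42.9%, 10.7% and 23.2%). A match describes letters in the window and is no evidence of binding.

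The 3 delivered factors did not read higher in iLC than in MEF by the test. Nr5a1 read 1265 in MEF, 1509 and 1158 in iLC, against 68030.1 and 44721 in Leydig cells (iLC minus MEF 0.06 ± 0.44 SE on the log2 scale, limma adjusted p = 0.964). Gata4 read 6773 in MEF, 4127 and 3150 in iLC, against 71888 and 50891 in Leydig cells (iLC minus MEF -0.91 ± 0.43, adjusted p = 0.368). Dmrt1 read 397 in MEF, 333 and 427 in iLC, against 549 and 519 in Leydig cells (iLC minus MEF -0.07 ± 0.38, adjusted p = 0.954). Where these probes lie relative to the delivered sequences is not stated, so they are no check of the transduction, and iLC means the arrays labelled so.

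The arrays differed in their cell content as read from marker genes. Of the 10 Leydig markers 7 had a named probe, and their summed intensity was 14665 in MEF, 95492 and 116579 in iLC, against 402922 and 414306 in Leydig cells. The labels were not borne out by every marker. Star, the cholesterol carrier of steroid-making cells, read 695 in MEF, 56878 and 73892 in iLC, against 1368 and 19703 in Leydig cells. Leydig replicate 1 thus read far below both iLC arrays for Star, while Nr5a1, Gata4, Hsd3b1 and Cyp17a1 were each higher on both Leydig arrays than on any other. Cyp17a1 read 2344 in MEF, 1382 and 2351 in iLC, against 40614 and 197728 in Leydig cells. Hsd3b1 read 830 in MEF with 27160 and 34513 in iLC, so most of the iLC sum came from Star and Hsd3b1. Hsd17b3 read 2165 in MEF, 3738 and 799 in iLC, against 1124 and 3680 in Leydig cells, and its groups overlapped. The 9 fibroblast markers summed to 1086707 on the MEF array, 467376 to 581127 on the iLC arrays and 127344 to 298646 on the Leydig arrays. Fn1, Lox, Col1a2, Thy1, Pdgfrb and Postn were each lower on both Leydig arrays than on any other. Pdgfra went the other way, at 15980 in MEF against 180686 and 92654 in Leydig cells, the largest part of both Leydig sums. Col3a1 read 6470 in MEF, against 30186 and 3266 in Leydig cells. The 8 germ cell markers summed to 28305 on Leydig replicate 1 and to 735510 on Leydig replicate 2, against 8582 to 10318 on the other 3 arrays, so Leydig replicate 2 stood apart. All 9 measured Sertoli markers summed to 395678 and 525491 on the Leydig arrays and 30260 to 91624 elsewhere, led by Clu and Aard, while Amh stayed at 229 or lower on every array. The 9 measured macrophage markers summed to 78978 in MEF, 25823 and 51549 in iLC, against 23281 and 29162 in Leydig cells. The 4 endothelial markers summed to 13916 and 9557 on the Leydig arrays and to 4360 to 6425 elsewhere. That excess came from Cdh5, at 10224 and 6400 on the Leydig arrays and 1216 or less elsewhere. Kdr was lower on both Leydig arrays, at 1709 and 1591, than on the other 3 (2087 to 3401), and Pecam1 and Tek overlapped the other arrays. The 4 measured hepatocyte markers summed to 2062 or less on every array. In such bulk RNA, fewer cells of a type and less RNA per cell cannot be told apart. The precision of every value is limited by the number of arrays.

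Single readings are given as deposited, as linear probe intensities. Differences between groups are on the log2(intensity + 16) scale, and the added 16 by itself shrinks those of dim probes. Tests are those of limma, two-sided and with Benjamini-Hochberg adjustment over all 19084 genes; "called" means an adjusted p under 0.05. Of the 67 members, 24 read under 600 on all 5 arrays, and 36 had a mean under 1000. The low end of the MEF array lay higher than that of the others: its 1st percentile was 83.8, against -10.1 and 23.7 for iLC, with 36.9 and 21.0 for Leydig cells. With each array's 1st percentile subtracted, fewer dim members were lower in iLC than in MEF, as given below.

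Leydig cells, for which iLC are named, were compared with MEF first. The Leydig arrays also read higher than MEF for the germ cell, Sertoli and endothelial marker sums. The differences are thus between whole preparations, and the part of each cell type in them was not tested. Cyp27a1, Cyp4f14, Cyp2j9 and Cyp4f13 were higher in Leydig cells than in MEF, by 29.2-, 15.9-, 7.26- and 3.41-fold, and no member was called lower. The 4 higher members are 5.97% of the 67, against 3.39% of all genes called higher. Over all genes 3.99% were called lower. At an unadjusted p under 0.05, 3 members were lower (4.48%, against 10.7% of all genes). Without overlap between the groups and by at least 2-fold, 8 members were higher (11.9%, against 11.4% of all genes) and 4 lower (5.97%, against 13.3%). All 4 of the lower ones had a mean under 1000. The median difference of the members was 0.03, against -0.10 for all genes.

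Cyp27a1 is the mitochondrial sterol 27-hydroxylase, which oxidises cholesterol to 27-hydroxycholesterol and can also hydroxylate vitamin D. It read 1106 in MEF, 4369 and 5813 in iLC, against 43513 and 24563 in Leydig cells. The 3 groups did not overlap, and the iLC arrays lay between the other groups. The difference between Leydig cells and MEF was 4.87 ± 0.49 (SE, adjusted p = 0.00524), and its call held in all 13 alternatives (range 4.45 to 5.28). Its reading was higher on Leydig replicate 1, where the germ cell marker sum was lower, than on replicate 2. The part of germ cells in these readings was not tested. Macrophages are also known to express Cyp27a1. Of their 9 measured markers, Cd74 read 436 in MEF, 383 or less in iLC, and 5743 and 7648 in Leydig cells, and Ptprc read 3557 in MEF, with 3077 and 4324 in Leydig cells, while the sum over all 9 was lower in Leydig cells. The part of macrophages in the Cyp27a1 readings was not tested.

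Cyp2r1, the main vitamin D 25-hydroxylase, followed the same order of arrays without being called. It read 1290 in MEF, 1978 and 2154 in iLC, against 5392 and 3539 in Leydig cells. The groups did not overlap, and the difference between Leydig cells and MEF was 1.75 ± 0.42 (SE, adjusted p = 0.065). It passed with a pseudocount of 64 (adjusted p = 0.0459), among genes with a mean intensity of 1000 or more (adjusted p = 0.0368) and with a floor on dim values (adjusted p = 0.0406). Between Leydig cells and MEF, the differences of Cyp27b1 and Cyp24a1 were 0.26 and 0.21 (adjusted p = 0.781 and 0.859). Cyp27b1, the 1-alpha-hydroxylase, read 382 in MEF, 489 and 512 in iLC, against 430 and 495 in Leydig cells. Cyp24a1, which inactivates vitamin D, read 847 in MEF, 1120 and 1673 in iLC, against 1051 and 915 in Leydig cells. For both genes the iLC readings were above that of MEF, and neither difference passed the test.

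**Figure D1:**
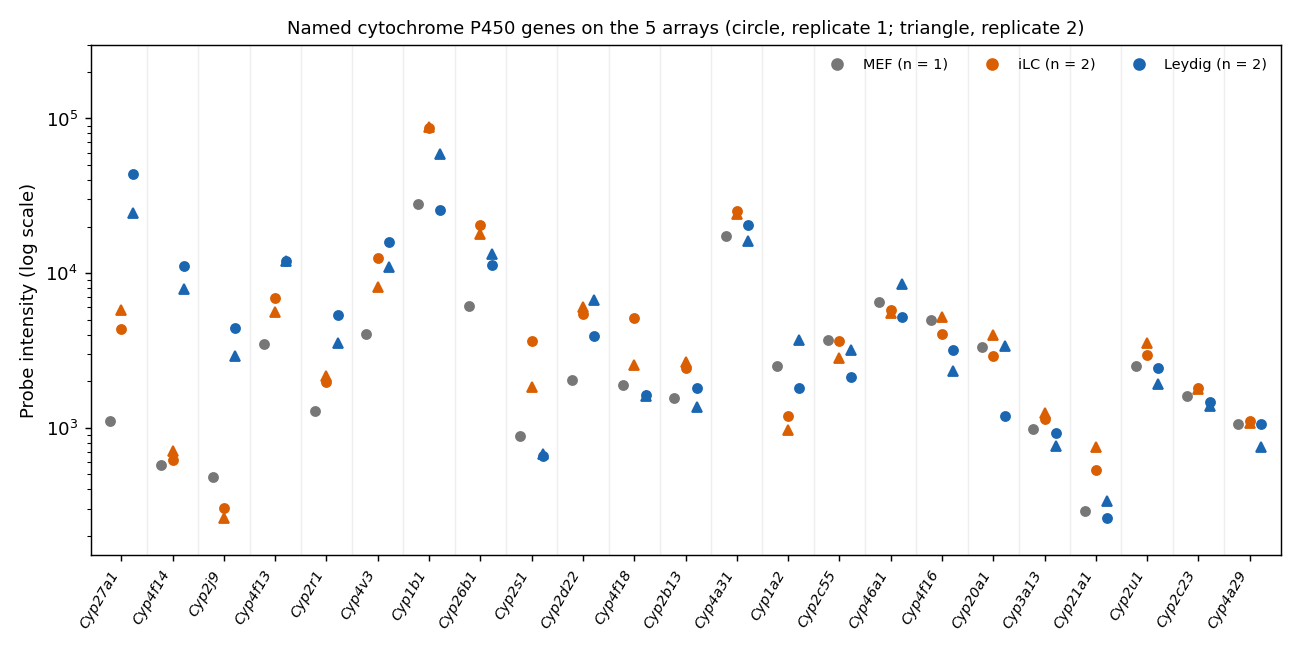
Probe intensity (log axis) of the 23 named P450 genes on each array; each symbol is 1 array, and positions within a gene separate MEF, iLC and Leydig. The Leydig arrays lie above all others for Cyp27a1, Cyp4f14, Cyp2j9, Cyp4f13 and Cyp2r1, and the iLC arrays lie above all others for Cyp1b1, Cyp26b1 and Cyp2s1.

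Family 4 enzymes hydroxylate fatty acids and eicosanoids at or near the methyl end. Of its 15 measured genes, 2 were called higher in Leydig cells than in MEF and 0 lower, against 3.39% and 3.99% of all genes. Their median difference was -0.05, against -0.10 for all genes. Cyp4f14, which in mouse inactivates leukotriene B4, read 572 in MEF, 620 and 708 in iLC, against 11084 and 7847 in Leydig cells. The Leydig arrays stood far above the other 3, which lay close together. The difference from MEF was 3.99 ± 0.41 (SE, adjusted p = 0.0056); the call was lost without Leydig replicate 2 (4.24, adjusted p = 0.0524). Cyp4f13 read 3503 in MEF, 6862 and 5638 in iLC, against 11921 and 12040 in Leydig cells. Its groups lay in the same order as those of Cyp27a1 and did not overlap. The difference from MEF was 1.77 ± 0.38 (SE, adjusted p = 0.0446). That call lay close to the threshold and was lost whichever of the 4 iLC and Leydig arrays was left out (differences of 1.76 to 1.78, adjusted p up to 0.148), with a pseudocount of 1 (1.77) and with all probes fitted (1.77).

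The Cyp4f genes other than Cyp4f18 lie in 1 stretch of chromosome 17 in the RefSeq order, where genes of other families may lie between them, and Cyp4f15, Cyp4f14 and Cyp4f13 are consecutive in the order of 10 Cyp4f genes, of which 8 were measured. Cyp4f15 read 387 in MEF, 611 and 304 in iLC, against 842 and 877 in Leydig cells. The Leydig arrays were the highest 2 of the 5, and the difference from MEF was 1.12 ± 0.50 (SE, adjusted p = 0.284). The neighbours on either side did not share this order. Cyp4f40 read 556 to 663 and Cyp4f41-ps 97.5 to 175 over the 5 arrays. Cyp4f16, further along, was lowest on the Leydig arrays, at 3182 and 2336, against 4958 in MEF with 4034 and 5180.5 in iLC (Leydig minus MEF -0.86, adjusted p = 0.328). Probe sequences were not used here, so whether a Cyp4f probe also binds transcripts of a near-identical paralogue was not tested.

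Cyp4v3, the mouse counterpart of a fatty acid hydroxylase mutated in a human crystalline retinal dystrophy, read 4042 in MEF, 12521 and 8186 in iLC, against 15814 and 10914 in Leydig cells. Both iLC and both Leydig arrays were above the MEF array and overlapped each other. Neither difference from MEF was called, at 1.70 ± 0.46 (SE, adjusted p = 0.0912) for Leydig cells and 1.32 ± 0.46 (adjusted p = 0.254) for iLC.

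The epoxygenase subfamilies Cyp2c and Cyp2j turn arachidonic acid into epoxides and hydroxylated products. Of their 12 measured genes, Cyp2j9 was the 1 called higher in Leydig cells than in MEF and 0 were called lower, against 3.39% and 3.99% of all genes. The median difference of the 12 was -0.42, against -0.10 for all genes. Cyp2j9 read 481 in MEF, 305 and 261 in iLC, against 4448 and 2906 in Leydig cells. The groups did not overlap, with iLC lowest. The difference from MEF was 2.86 ± 0.43 (SE, adjusted p = 0.0153), and it lost its call without either Leydig array (2.55 and 3.17, adjusted p = 0.0614 and 0.0648). Its neighbours in the RefSeq order, Cyp2j6 and Cyp2j5, did not share the pattern. Cyp2j6 read 401 in MEF, 414 and 583 in iLC, against 548 and 483 in Leydig cells. Cyp2j5 read 941 in MEF, 204 and 313 in iLC, against 348 and 853 in Leydig cells. Neither was called, and their Leydig readings stayed under 1000.

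**Figure D2:**
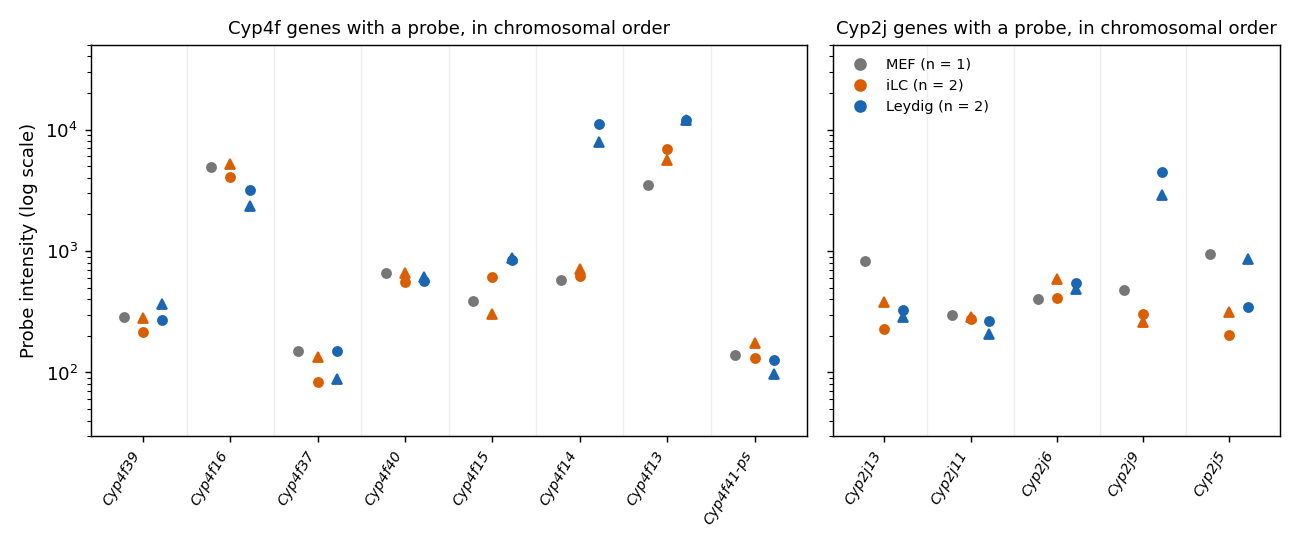
Probe intensity (log axis) of the 8 measured Cyp4f genes of 1 chromosomal cluster and of the 5 measured Cyp2j genes, in RefSeq order; circles are replicate 1 and triangles replicate 2. For Cyp4f14 and Cyp2j9 both Leydig arrays lie far above the other 3, and for Cyp4f40 and Cyp2j6 all 5 arrays lie close together.

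The comparison of iLC with Leydig cells sets cells labelled as transduced against preparations whose arrays also read higher for germ cell and Sertoli marker sums. Cyp4f14, Cyp2j9 and Cyp27a1 were lower in iLC, by 13.8-, 12.1- and 6.47-fold, and Cyp2s1 was higher, by 3.80-fold. The 3 lower members are 4.48% of the 67, against 5.69% of all genes called lower, and the 1 higher member is 1.49%, against 5.74%. The share of P450 genes called was thus no larger than that of all genes in either direction. Without overlap and by at least 2-fold, 4 members were higher in iLC (5.97%, against 10.5% of all genes) and 7 lower (10.4%, against 13.8%). The median difference was 0.07 for the members and -0.03 for all genes.

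Cyp4f14 differed by -3.78 ± 0.33 (SE, adjusted p = 0.00199) and Cyp2j9 by -3.60 ± 0.35 (adjusted p = 0.00243). These 2 calls held in all 15 alternatives. Among these, the fit to the 4 iLC and Leydig arrays without a block repeats the main fit, so it is no separate check. Leaving out 1 array, the differences were -4.03 to -3.53 for Cyp4f14 and -3.90 to -3.29 for Cyp2j9. Their iLC readings of 620 and 708 for Cyp4f14 and of 305 and 261 for Cyp2j9 were close to or below those of MEF, and neither differed from MEF by the test (0.21 ± 0.41 with adjusted p = 0.855, and -0.74 ± 0.43 with adjusted p = 0.47). Cyp27a1 differed from Leydig cells by -2.69 ± 0.40 (SE, adjusted p = 0.00994). Its call was lost without iLC replicate 1 (-2.49, adjusted p = 0.0657) or Leydig replicate 1 (-2.28, adjusted p = 0.0538). Cyp4f13 (-0.94 ± 0.31, adjusted p = 0.111) and Cyp2r1 (-1.08 ± 0.35, adjusted p = 0.106) were below the Leydig arrays on both iLC arrays without passing.

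Cyp2s1, an enzyme of epithelia outside the liver that responds to aryl hydrocarbons, read 884 in MEF, 3625 and 1843 in iLC, against 656 and 679 in Leydig cells. Both iLC arrays were above the other 3, and they differed from each other by more than the Leydig arrays did. The difference from Leydig cells was 1.93 ± 0.41 (SE, adjusted p = 0.0327) and that from MEF 1.53 ± 0.50 (adjusted p = 0.228). The call against Leydig cells was lost in 5 of 15 alternatives: without iLC replicate 1 (1.44, adjusted p = 0.126), without Leydig replicate 1 (1.90, adjusted p = 0.139) or 2 (1.95, adjusted p = 0.168), with a pseudocount of 1 (1.95, adjusted p = 0.0507) and with each array's 1st percentile subtracted (1.98, adjusted p = 0.0574).

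**Figure D3:**
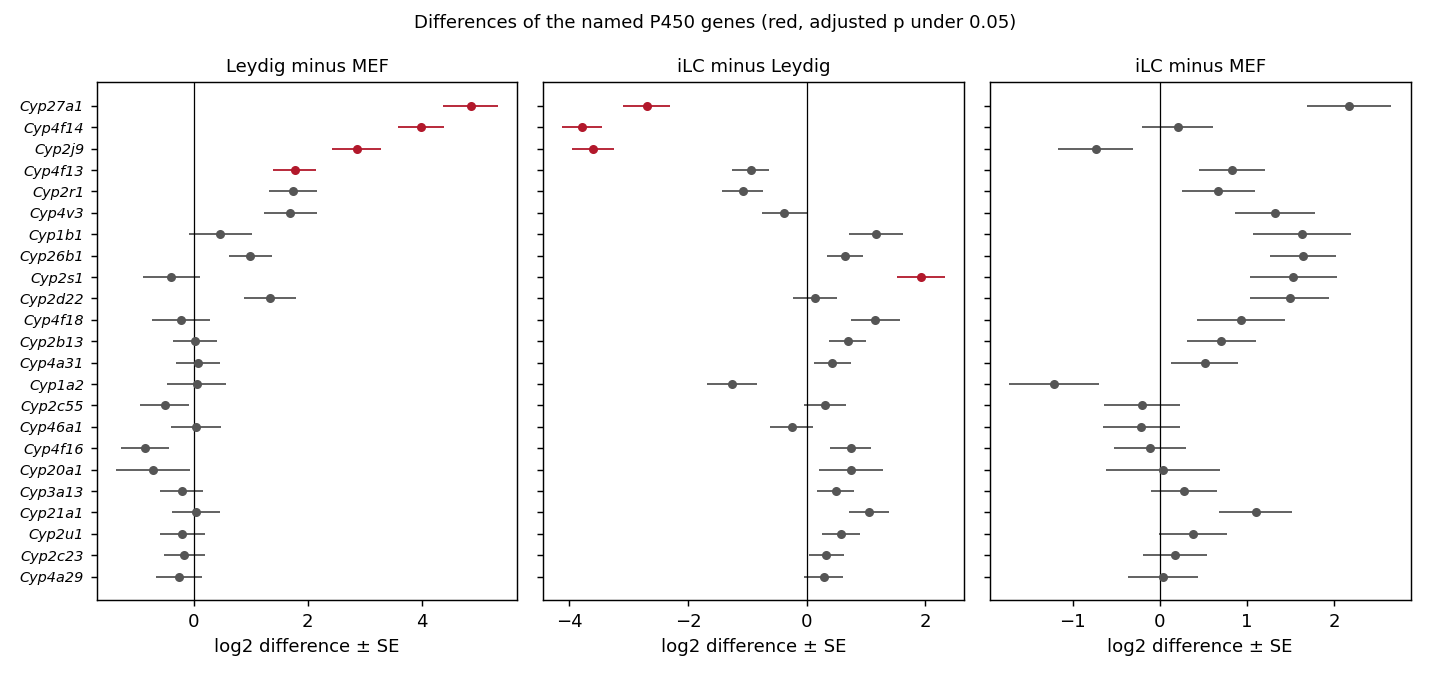
Log2 difference with its standard error for the 23 named P450 genes in each of the 3 comparisons, from the fit over all 5 arrays; red marks an adjusted p under 0.05. Cyp27a1, Cyp4f14 and Cyp2j9 are red in both comparisons with Leydig cells, and no gene is red between iLC and MEF.

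The comparison of iLC with MEF shows how cells labelled as transduced differed from mock-treated ones. No P450 member was called by limma in either direction. Of all genes, 0.283% were called higher and 0.288% lower, shares so low that 0 of 67 does not set the members apart. At an unadjusted p under 0.05, 7 members were higher (10.4%, against 5.57% of all genes) and 7 lower (10.4%, against 10.2%). Without overlap and by at least 2-fold, 8 were higher (11.9%, against 6.83%) and 11 lower (16.4%, against 14.4%). Of the 8 higher members 7 had a mean of 1000 or more, and of the 11 lower members 10 had a mean under 1000. After each array's 1st percentile was subtracted, 10 members were higher by that rule (14.9%, against 9.44% of all genes) and 5 lower (7.46%, against 8.86%). The median difference over the members was 0.11, against -0.11 for all genes. Among the 31 members with a mean of 1000 or more it was 0.41, against 0.03 for all genes of that range.

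The 7 lower members at an unadjusted p under 0.05 all had means under 1000, and none was called. They were Cyp2j5 (-1.83), Cyp2d13 (-1.54), Cyp2j13 (-1.45), Cyp26a1 (-1.43), Cyp2g1 (-1.40), Cyp2b23 (-1.17) and Cyp2c65 (-1.14), each the log2 difference between iLC and MEF. The higher members by that rule were Cyp27a1, Cyp26b1, Cyp1b1, Cyp2s1, Cyp2d22, Cyp4v3 and Cyp21a1. Cyp27a1 differed between iLC and MEF by 2.17 ± 0.49 (SE, adjusted p = 0.117), a fold of 4.51. Its 95% confidence interval, not adjusted for the number of genes, was 0.99 to 3.35 on the log2 scale. Genes picked at an unadjusted p under 0.05 have intervals that exclude no difference by that choice, so such intervals add no support. Cyp26b1 clears retinoic acid, and in the fetal mouse testis it keeps germ cells from entering meiosis. It read 6145 in MEF, 20627 and 17923 in iLC, against 11275 and 13301 in Leydig cells. The iLC arrays were highest and the MEF array lowest, with no overlap. The difference between iLC and MEF was 1.64 ± 0.38 (SE, adjusted p = 0.127, unadjusted 95% confidence interval 0.72 to 2.57). That between iLC and Leydig cells was 0.65 ± 0.31 (adjusted p = 0.247).

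The other retinoic acid hydroxylases differed in pattern. Cyp26c1 read 1152 in MEF, 1703 and 1595 in iLC, against 1619 and 1428 in Leydig cells. Cyp26a1 was dim everywhere, at 190 in MEF, 48.4 and 74.3 in iLC, against 79.0 and 79.9 in Leydig cells. Its lower readings are in the range where the arrays' low ends differ.

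Cyp1b1 hydroxylates oestradiol and polycyclic hydrocarbons and responds to the aryl hydrocarbon receptor. It read 28085 in MEF, 86533 and 87493 in iLC, against 25436 and 58961 in Leydig cells. Both iLC readings were close to each other and above the other 3, while the Leydig arrays were far apart and lay on either side of the MEF array. The difference between iLC and MEF was 1.63 ± 0.56 (SE, adjusted p = 0.247) and that between iLC and Leydig cells 1.17 ± 0.46 (adjusted p = 0.167), which was 1.77 without Leydig replicate 2 and 0.56 without Leydig replicate 1. The other family 1 genes did not follow it. Cyp1a2, mainly a liver enzyme, read 2507 in MEF, 1185 and 966 in iLC, against 1818 and 3691 in Leydig cells. Its iLC readings were the lowest 2 of the 5, and neither difference was called (-1.22 ± 0.52 from MEF with adjusted p = 0.329, and -1.26 ± 0.42 from Leydig cells with adjusted p = 0.118). Cyp1a1 read between 127 and 353 on all arrays, with the highest value on Leydig replicate 2. All 3 family 1 genes read higher on Leydig replicate 2, the array with high germ cell markers, than on replicate 1; the part of germ cells in these readings was not tested.

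Among the other family 2 genes, most of them drug-metabolising, 1 of 19 was called in any comparison. That was Cyp2s1, higher in iLC than in Leydig cells, where 5.74% of all genes were called higher. Cyp2d22, the mouse gene often set beside human CYP2D6, read 2029 in MEF, 5428 and 6043 in iLC, against 3954 and 6745 in Leydig cells. All 4 iLC and Leydig readings exceeded that of MEF, and iLC and Leydig cells overlapped. The difference from MEF was 1.49 ± 0.45 (SE, adjusted p = 0.207) for iLC and 1.34 ± 0.45 (adjusted p = 0.164) for Leydig cells. Cyp2b13 was highest on the iLC arrays, at 2440 and 2656, against 1554 in MEF, with Leydig cells at 1800 and 1370 (iLC minus Leydig 0.69, adjusted p = 0.231). Of the 19, 7 read under 600 on every array, and their differences carry little information.

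The remaining sterol enzymes showed no call. Cyp21a1, the adrenal 21-hydroxylase, read 288 in MEF, 538 and 750 in iLC, against 261 and 338 in Leydig cells. The iLC readings were the highest 2, at a low level, and the differences were 1.10 ± 0.42 (SE, adjusted p = 0.288) from MEF and 1.06 ± 0.34 (adjusted p = 0.107) from Leydig cells. Cyp11b2, the aldosterone synthase, stayed between 277 and 307 on all 5 arrays. Cyp7b1, an oxysterol 7-alpha-hydroxylase, read 1869 in MEF, 3186 and 2873 in iLC, against 4221 and 1541 in Leydig cells, where the replicates were further apart than the groups. Cyp46a1, the cholesterol 24-hydroxylase of neurons, read 6515 in MEF, 5750 and 5492 in iLC, against 5193 and 8567 in Leydig cells. Cyp7a1 and Cyp8b1, both liver enzymes of bile acid synthesis, read at most 316 and 538. Of the 6 bile acid and oxysterol genes, Cyp27a1 was the 1 called in any comparison. It was called higher in Leydig cells than in MEF and lower in iLC than in Leydig cells, against 3.39% and 5.69% of all genes. Cyp27a1 was also counted among the 4 vitamin D genes.

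Cyp4f18, a leukotriene B4 hydroxylase of mouse myeloid cells, read 1884 in MEF, 5133 and 2539 in iLC, against 1620 and 1598 in Leydig cells. The iLC arrays were higher than the other 3, yet far apart, and the difference from Leydig cells was 1.16 ± 0.41 (SE, adjusted p = 0.137). Of the iLC arrays, the one with the higher Cyp4f18 reading had the lower macrophage sum, 25823 against 51549; the part of macrophages in its readings was not tested. Cyp4a31 read 17270 in MEF, 25189 and 24084 in iLC, against 20578 and 16061 in Leydig cells, with iLC highest and adjusted p = 0.585 against MEF and 0.435 against Leydig cells. Cyp4a29, of the same subfamily, read 749 to 1101. Whether the Cyp4a31 probe also binds other transcripts was not tested. Cyp20a1, a P450 with no settled substrate, read 1189 on Leydig replicate 1 and 2915 to 3960 on the other 4 arrays.

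Smaller differences were given by the other named members. Cyp2c55 read 3723 in MEF, 3662 and 2833 in iLC, against 2137 and 3166 in Leydig cells. Cyp2c23, Cyp2u1, Cyp3a13 and Cyp4a29 each read highest on the iLC arrays, with differences of 0.17, 0.38, 0.28 and 0.03 from MEF and 0.34, 0.58, 0.49 and 0.29 from Leydig cells. None of these differences was called. Over all members, both iLC readings were above the other 3 arrays for 15 genes (22.4%, against 17.6% of all genes) and below them for 7 (10.4%, against 18.5%). The order MEF, iLC, Leydig without overlap, from low to high, was found for 5 members (7.46%, against 5.98% of all genes), which were Cyp27a1, Cyp4f13, Cyp4f14, Cyp2r1 and Cyp2e1. For Cyp2e1 the 5 readings spanned only 1835 to 2123.

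Of the members, 5 had a second probe, and none of these genes was called. For Cyp2c50, Cyp2j5 and Cyp3a59 the second probe read 115 or lower on every array. Cyp39a1 read 271 to 449 with its second probe and 345 to 895 with the probe used. Cyp2c23 read 290 to 422 with its second probe, highest on the MEF array, and 1378 to 1801 with the probe used, highest on the iLC arrays, so its probes disagreed in order.

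Genes that serve the P450 enzymes were examined from lists chosen with the P450 genes. Of 5 measured electron donors, Fdx1 was called higher in iLC than in MEF (3.53 ± 0.43 SE, adjusted p = 0.0387) and higher in Leydig cells than in MEF (3.78, adjusted p = 0.0072), with 0 calls between iLC and Leydig cells. Of all genes, 0.283% were called higher in iLC and 3.39% in Leydig cells than in MEF. Between iLC and Leydig cells, 5.74% were called higher and 5.69% lower. Fdx1 read 12392 in MEF, 147489 and 139550 in iLC, against 136753 and 212818 in Leydig cells. The call between iLC and MEF was lost in 7 of 13 alternatives, and that between Leydig cells and MEF without Leydig replicate 2. Por had no named probe, and Cyb5b, an outer mitochondrial cytochrome b5, had the largest difference between iLC and Leydig cells (-1.24, adjusted p = 0.0547).

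Of 9 measured genes of haem metabolism, Alas1 and Alas2, which encode the first enzyme of haem synthesis, were called higher in Leydig cells than in MEF, and Alas2 in iLC than in MEF, so 2 and 1 of 9, against 3.39% and 0.283% of all genes. Alas1 read 30349 in MEF, 132138 and 148936 in iLC, against 133379 and 176745 in Leydig cells. Both other groups lay above MEF, by 2.34 (adjusted p = 0.0216) in Leydig cells and 2.21 (adjusted p = 0.0798) in iLC. Alas2, the form known from red cell precursors, read 581 in MEF, 11957 and 35000 in iLC, against 7007 and 8473 in Leydig cells. Its differences from MEF were 5.10 (adjusted p = 0.0412; 4.33 to 5.88 leaving out either iLC array) in iLC and 3.69 (adjusted p = 0.0252) in Leydig cells. All 3 calls were lost without Leydig replicate 1 or 2. That of Alas2 between iLC and MEF was lost in 7 of 13 alternatives, among them those without either iLC array. The calls of Alas2 and Alas1 between Leydig cells and MEF were lost in 3 and 4 of 13, that of Alas1 also without either iLC array. The list's median was 0.56 between Leydig cells and MEF, 0.19 between iLC and MEF and -0.13 between iLC and Leydig cells, against -0.10, -0.11 and -0.03 over all genes.

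Of 19 measured regulators of P450 genes, 3 were called higher and 1 lower in Leydig cells than in MEF, 2 higher and 4 lower between iLC and Leydig cells, with 0 between iLC and MEF. Of all genes, 3.39% were called higher and 3.99% lower between Leydig cells and MEF, and 5.74% higher and 5.69% lower between iLC and Leydig cells. Between iLC and MEF, 0.283% were called higher and 0.288% lower, so few that 0 of 19 does not set the regulators apart. Nr1h4, the bile acid receptor, read 874 in MEF, 1916 and 1408 in iLC, against 19011 and 24428 in Leydig cells. Nr0b2, the repressor it induces in liver, read 458 in MEF, 430.1 and 506 in iLC, against 3147 and 5716 in Leydig cells. Ppara, a fatty acid receptor that drives Cyp4a genes in liver, read 287 in MEF, 227 and 269 in iLC, against 5506 and 7899 in Leydig cells. All 3 were high on both Leydig arrays alone. Their differences between iLC and Leydig cells were -3.70 (adjusted p = 0.00209), -3.14 (adjusted p = 0.00563) and -4.65 (adjusted p = 0.00137), calls that held in all 15 alternatives. Between Leydig cells and MEF the differences were 4.60, 3.17 and 4.45 (adjusted p = 0.00411, 0.0156 and 0.00441), and each lost that call without Leydig replicate 2. Ppara has a second probe, which read 174 in MEF, 259 and 176 in iLC, against 254 and 809 in Leydig cells. With the mean of both probes its differences were -2.84 between iLC and Leydig cells and 2.88 between Leydig cells and MEF.

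Of the retinoic acid receptors, Rara was among the 4 called lower in iLC than in Leydig cells (-1.90, adjusted p = 0.023), a call lost whichever of the 4 iLC and Leydig arrays was left out, and Rarb differed in the other direction. Rarb read 1641 in MEF, 1604 and 3307 in iLC, against 98.5 and 72.3 in Leydig cells. The difference between iLC and Leydig cells was 4.53 (adjusted p = 0.00229), which held in all 15 alternatives, and that between Leydig cells and MEF was -4.04 (adjusted p = 0.0105), which was lost without either Leydig array. Its Leydig readings lie near the low end of the arrays, and with a floor at each array's 20th percentile the differences were 3.32 and -2.84. Vdr, the vitamin D receptor, read 2152 in MEF, 33475 and 10429 in iLC, against 1367 and 602 in Leydig cells. It was higher in iLC than in Leydig cells by 4.34 (adjusted p = 0.0105), a call lost without either Leydig array (3.50 without iLC replicate 1 and 5.18 without iLC replicate 2), and its difference from MEF was 3.11 (adjusted p = 0.153). Ahr, the aryl hydrocarbon receptor, read 1994 in MEF, 6699 and 8676 in iLC, against 4516 and 3181 in Leydig cells, with 1.93 between iLC and MEF (adjusted p = 0.114). Both iLC readings were above the other 3.

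**Figure D4:**
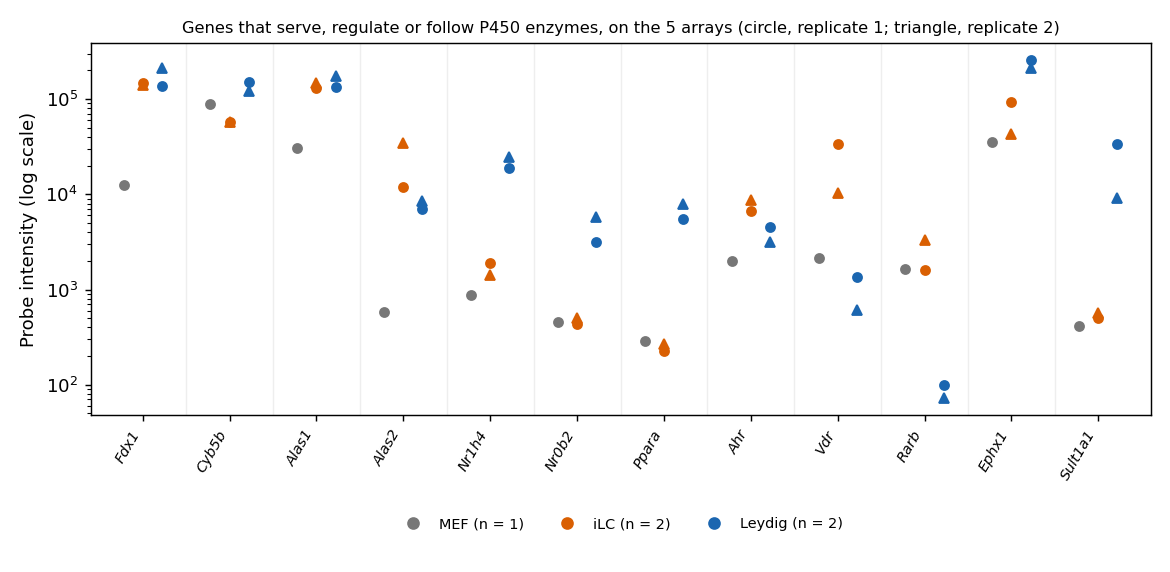
Probe intensity (log axis) on each array of 12 genes that supply electrons or haem to P450 enzymes, regulate them or act on their products. Nr1h4, Nr0b2, Ppara and Sult1a1 are high on both Leydig arrays and low on the other 3, and Fdx1 and Alas1 are high on all but the MEF array.

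Of 15 measured conjugation enzymes, which act on products of P450 enzymes, 2 were called higher in Leydig cells than in MEF and the same 2 were called lower in iLC than in Leydig cells, against 3.39% and 5.69% of all genes. Sult1a1, a phenol sulfotransferase, read 416 in MEF, 496 and 572 in iLC, against 33646 and 9198 in Leydig cells. It differed by 5.35 (adjusted p = 0.0126) between Leydig cells and MEF and by -5.00 (adjusted p = 0.00535) between iLC and Leydig cells, and both calls held in every alternative. Without Leydig replicate 1 the differences were 4.41 and -4.07, and without Leydig replicate 2 they were 6.28 and -5.94. Ephx1, the microsomal epoxide hydrolase, read 35472 in MEF, 92934 and 43322 in iLC, against 255994 and 212474 in Leydig cells. Its differences were 2.72 (adjusted p = 0.0346) and -1.88 (adjusted p = 0.0447), and both were lost without either Leydig array, with a pseudocount of 1 and with each array's 1st percentile subtracted. None of the 15 was called between iLC and MEF, where 0.283% of all genes were called higher and 0.288% lower. The largest difference there was that of Sult2b1, a sterol sulfotransferase (2.22, adjusted p = 0.104). Of the P450 relatives without a Cyp symbol, Tbxas1, the thromboxane synthase of platelets and macrophages, was lower in Leydig cells than in MEF (-3.81, adjusted p = 0.0327). That call was lost in 5 of 12 alternatives (-2.67 with a floor at each array's 20th percentile). Tbxas1 read 1458 in MEF, 188 and 717 in iLC, against 92.3 and 86.6 in Leydig cells. The part of macrophages in its readings was not tested. Ptgis, the prostacyclin synthase, read 29100 in MEF, 48690 and 53933 in iLC, against 46122 and 41887 in Leydig cells, with no call.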

How the data were processed

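Each of 5 Cy5-labelled RNA samples was read on 1 array, per the labels' protocols. The authors deposited linear intensity values per probe; the sources used here name no background correction, normalization or software, and detection calls were not used here. Probes were named through the platform annotation (21876 of 26423 probes had 1 symbol, 0 had several and 4547 none). All 67 P450 symbols matched RefSeq (GRCm38.p6) by Entrez identifier. The probe with the highest mean was used for a gene. Values below 0 were set to 0, 16 was added and log2 taken. limma 3.58.1 in R 4.3.3 was fitted across all genes with 1 mean per group over 5 arrays (2 residual and 4.19 prior degrees of freedom). With 1 array, MEF was taken to vary as the pairs do, whose root mean square SD over the members was 0.39 for iLC and 0.47 for Leydig cells. The fit was tested on simulated data. Members, lists and markers were chosen with earlier results of these data known. Named members were those called in any comparison, in each comparison up to 6 per direction with the largest differences without overlap (mean of 1000 or more in the higher group), and the member with the highest mean in each role group; of other lists, up to 4 called genes, or up to 2 where none was called. Members named outside the rule (Cyp27b1, Cyp24a1, Cyp26a1, Cyp26c1, Cyp1a1, Cyp7a1, Cyp7b1, Cyp8b1, Cyp11b2, Cyp2e1, those below an unadjusted p of 0.05, neighbours in the gene clusters and genes with second probes) and Rara were chosen after their values were seen. 0 columns belonged to no sample.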

Additional observations from a re-analysis of the deposited data

How the results depend on the processing

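The 67 P450 genes gave 0 calls between iLC and MEF in either direction under all 13 alternatives. Between Leydig cells and MEF the 4 higher calls became 3 to 5 under the settings that keep all arrays and 1 to 3 when 1 array was left out, and 0 were lower throughout. Between iLC and Leydig cells, 2 to 4 members were lower under every setting, and the 1 higher call, Cyp2s1, became 0 with a pseudocount of 1 and 0 with each array's 1st percentile subtracted, and ranged from 0 to 1 when 1 array was left out. Leaving out an array takes 1 of 2 residual degrees of freedom. The fit to the 4 iLC and Leydig arrays without a block repeats the main fit for that pair. Counts over 15 alternatives thus include 1 that could not differ. The named differences that changed sign, none of them called, were Cyp20a1 between iLC and MEF (-0.0136 with each array centred, -0.00793 with quantile normalization, -0.18 to 0.26 leaving out 1 array) and between Leydig cells and MEF (-1.46 to 0.0337 leaving out 1 array), Cyp2d22 between iLC and Leydig cells (-0.24 to 0.53), and, between Leydig cells and MEF, Cyp4a31 (-0.10 to 0.25), Cyp1b1 (-0.14 to 1.07) and Cyp21a1 (-0.14 to 0.22). The cause was not tested. iLC and Leydig arrays share replicate numbers; deviations of same-numbered arrays correlated at 0.06 across genes, so the numbers were not taken to pair them. With the replicate block, 1 member was higher and 4 lower in iLC than in Leydig cells, against 1 and 3 without it, all 4 earlier calls among them; over all genes the block gave 1485 higher and 1958 lower, against 1095 and 1086. Over all genes the higher and lower calls were 54 and 55 between iLC and MEF, 6 and 0 with each array's 1st percentile subtracted, 7 and 2 with a pseudocount of 1, 163 and 200 with quantile normalization, and 0 and 0 when 1 array was left out. Subtracting the 1st percentile moved the median of all genes between iLC and MEF from -0.11 to 0.12, and quantile normalization moved it to 0.05. Detection over background was not used here, so differences of dim members carry no check against it.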
